A study of Homo sapiens with 4 samples.

Results

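The comparison described here sets the libraries numbered 2 against the libraries numbered 1 in RNA sequencing of U87 cells, a human glioblastoma line. There are 4 libraries, and all were used. Control 1 and control 2 are U87 cells given a single strand of a luciferase siRNA (ssGL2), which has no human target by design, and mimic 1 and mimic 2 are U87 cells given a synthetic mimic of tRF-3009a, a fragment of a transfer RNA. All 4 had 50 nM of their oligonucleotide, delivered with lipofectamine 2000, for 48 h, so no library is from untransfected cells, and all are from 1 cell line bought from a repository and grown with 10% serum. Each number holds 1 control and 1 mimic library. The labels give the number as a replicate and do not say what else it marks, such as a culture, a passage or a day, so a difference between the numbers cannot be assigned to any of these. All 16535 genes with a mean of at least 10 normalised reads, of 22031 genes with a deposited value, and 58500 transcripts, of 90643 matched to the annotation, were described.

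The recovered depth was 28860788 to 33848402 reads per library, and each library had a read in 21396 to 21631 genes. Mitochondrially encoded genes held 4.43% to 4.96% of the values. The labelled cell line was checked against markers of a mesenchymal glial tumour. VIM had 276550 and 249910 normalised reads in number 1 and 126390 and 121240 in number 2, and CD44 had 41466 and 39597 against 21459 and 17935, naming control before mimic here and throughout. SOX9 had 1122 and 1017 against 551 and 466, and NES, the neural progenitor filament gene nestin, had 888 and 911 against 187 and 185. These 4 genes were lower in number 2, while the astrocyte filament gene GFAP (12.5 and 29.7 against 23.6 and 19.95) and the stem cell factor gene SOX2 (9.35 and 17.99 against 17.9 and 9.55) were near the filter in every library. Over all genes tested 27.9% were higher and 25.9% lower. Of the 18 glial identity genes listed, 16 passed the filter, 3 were higher, 7 were lower and 6 did not pass the test. The 3 higher genes were OLIG2, an oligodendrocyte lineage factor gene (101 and 83.6 against 411 and 419), ALDH1L1, an astrocyte folate enzyme gene (2.08 and 4.49 against 34.7 and 33.4), and AXL, a receptor kinase gene (13709 and 12649 against 18051 and 16964). The call of OLIG2 was lost when only transcripts whose version matches the annotation were counted (log2 difference 1.45, limma adjusted p = 0.247).

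Cells that run short of amino acids, or that fill their endoplasmic reticulum with unfolded protein, phosphorylate the translation factor eIF2. Most translation then slows, while that of ATF4 increases, and ATF4 switches on genes for amino acid synthesis and uptake, for charging transfer RNAs and, under long stress, for cell death. This program is called the integrated stress response. NF-kB is a family of factors that switches on cytokine and chemokine genes, and E2F factors and the MuvB complex switch on the genes of DNA replication and of mitosis in cycling cells.

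By limma on log2(value + 1), with treatment as a block, 4609 genes (27.9%) were higher in number 2 and 4282 (25.9%) lower, with adjusted p-values below 0.05; 9540 genes had an unadjusted p under 0.05. The median log2 difference of all genes was 0.0079, and the median standard error was 0.139. With 4 libraries and 3 coefficients there was 1 residual degree of freedom per gene, and limma found no variance between genes beyond its trend with level, so every gene borrowed the spread of genes of its level. The p-values therefore measure how alike the number difference was in control and in mimic for genes of that level, and not a spread over cultures. A gene's own disagreement between the treatments does not enter its p-value, so a called gene can differ in sign between them. With 3 libraries no degree of freedom is left for a treatment term, so every fit given here without 1 library also has no treatment term. In such fits 2633 genes were higher and 2797 lower without control 2, and 2577 and 2586 without mimic 2; with all 4 libraries and no treatment term there were 4297 and 4004. A rule of size that does not rest on that variance asks for a change beyond 2-fold, of 1 sign, in control and also in mimic. It took 1123 genes (6.79%) as higher and 1172 (7.09%) as lower. More than 4-fold in both treatments took 297 and 223 genes, and more than 8-fold took 125 and 41.

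The differences within control and within mimic share no library, so the pair can be set side by side. They had the same sign in 82.5% of the 16535 genes, and in 88.7% of the 6199 genes with a mean of at least 1000. Pearson's r across genes was 0.745 over all and 0.960 over the genes with a mean of at least 1000, as a description, since genes are not independent and the libraries of 1 number may share their culture. Among all genes 71 differed by more than 2-fold in opposite directions, and among those with a mean of at least 1000 there were 0. In 12522 of the 16535 genes the values of number 2 lay all above or all below those of number 1.

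**Figure D1:**
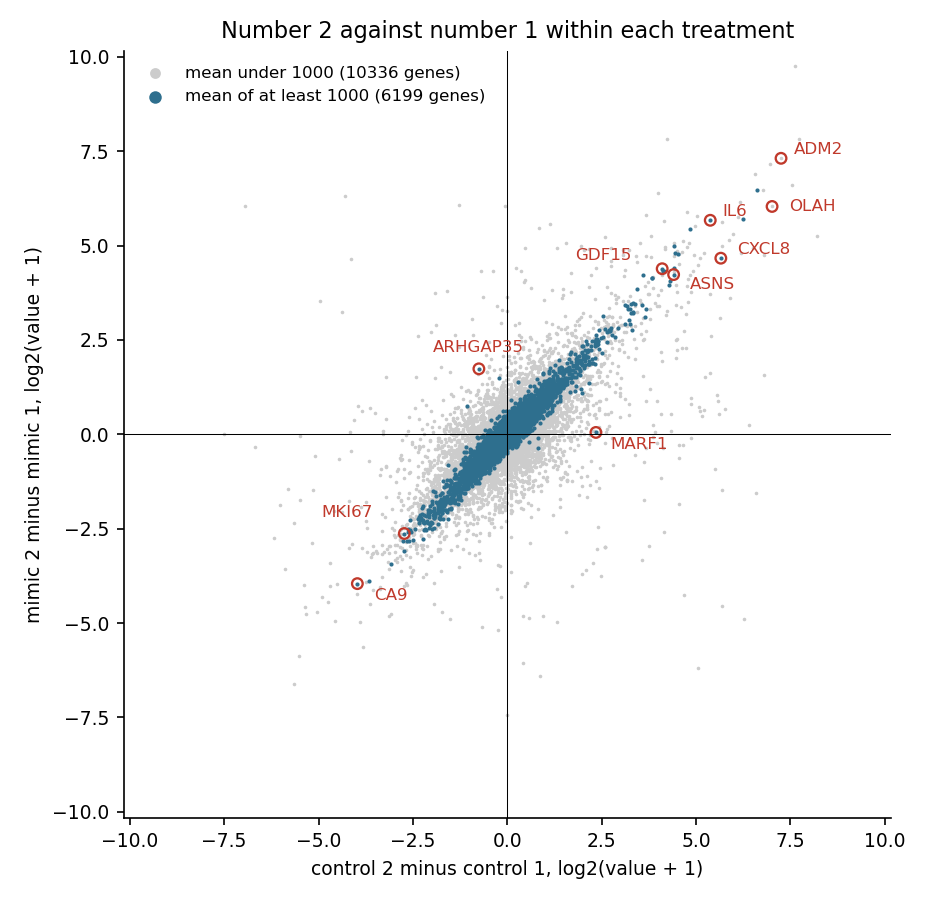
Each point is 1 of 16535 genes, with the log2(value + 1) difference of control 2 minus control 1 on the x axis and of mimic 2 minus mimic 1 on the y axis; blue points are the 6199 genes with a mean of at least 1000. Named genes are circled. The blue points lie along the diagonal (r = 0.960), with IL6, CXCL8, ASNS and GDF15 at the upper right, CA9 and MKI67 at the lower left, and ARHGAP35 and MARF1 off the diagonal.

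The genes that stood highest in number 2 came from several programs. By the rule for named genes they were CLDN1, SPRR2D, OLAH, IL1A, IL6, CXCL8, CHAC1, DDIT4, RAB43, UNC5B, CTH and ASNS. CLDN1, which encodes the tight junction protein claudin 1, had 15.6 and 8.09 normalised reads in number 1 and 1563 and 1081 in number 2, a log2 difference of 6.73 (SE 0.23; 106-fold). SPRR2D, a gene of the cornified envelope of skin, had 51.1 and 34.3 against 5066 and 3103. OLAH, which encodes a thioesterase of fatty acid synthesis, had 10.4 and 19.8 against 1473 and 1362. In each of these 3 genes, picked for the size of their difference, both number 2 libraries were far above both number 1 libraries. UNC5B, which encodes a netrin receptor, had 583 and 460 against 12731 and 12869, and RAB43, which encodes a small GTPase of membrane traffic, had 134 and 104 against 3083 and 2904.

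The genes that stood lowest were CA9, FAM111B, KIF20A, C10orf90, MPP4, MEST, KCTD4, NDP, PTPN22, RRM2, OLFML2B and SPAG5. CA9, a cell surface carbonic anhydrase gene of the hypoxia response, had 6536 and 4363 normalised reads in number 1 and 416 and 280 in number 2 (log2 difference -3.96, SE 0.11; 15.6-fold lower). FAM111B, which encodes a protease of cycling cells, had 1739 and 1845 against 146 and 105. NDP, which encodes the secreted ligand norrin, had 1678 and 1562 against 191 and 198. MEST, an imprinted gene, had 2160 and 2192 against 254 and 201. The values of each of these genes, picked for large differences, did not overlap between the numbers, as in 12522 of all 16535 genes. The remaining genes named had log2 differences of -3.77 (KIF20A) to -2.78 (SPAG5).

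**Figure D2:**
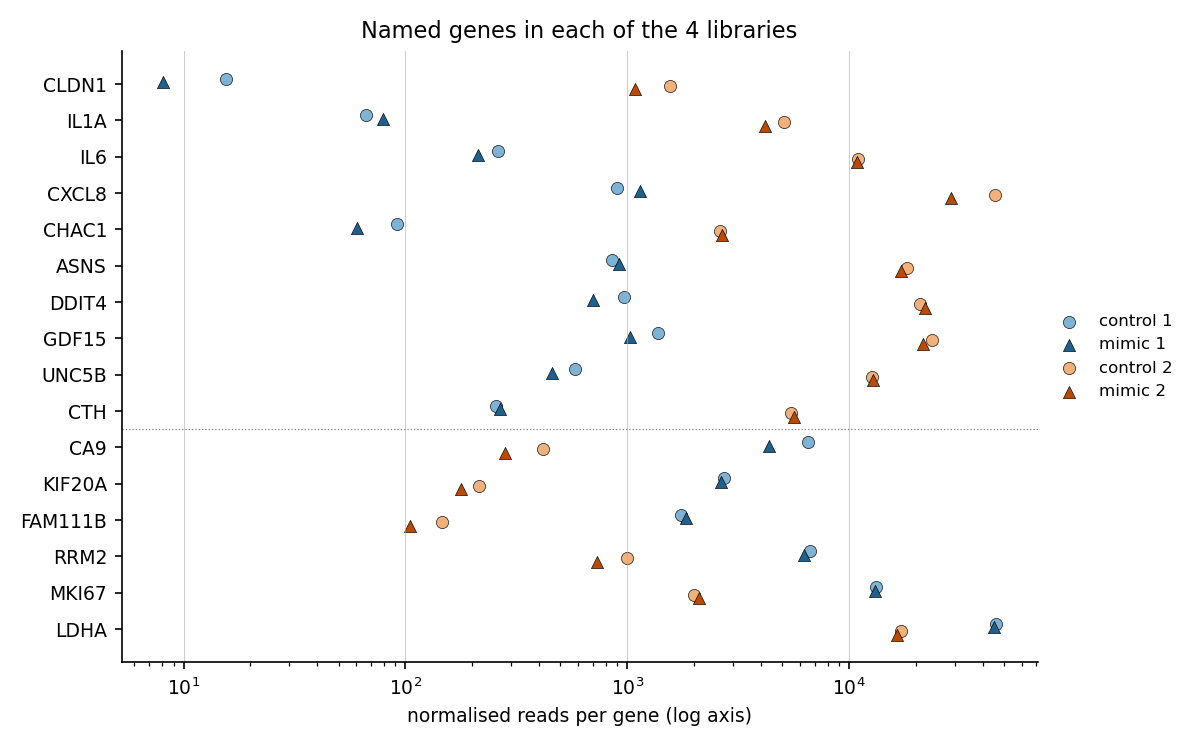
Normalised reads per gene on a log axis for 16 named genes in the 4 libraries; blue marks are number 1, orange marks number 2, circles control and triangles mimic. Above the dotted line both orange marks lie to the right of both blue marks, and below it to the left, as for CLDN1 (15.6 and 8.09 against 1563 and 1081) and CA9 (6536 and 4363 against 416 and 280).

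Genes of the integrated stress response were higher in nearly all cases, beside 27.9% of all genes higher and 25.9% lower. More than 2-fold higher in both treatments were 6.79% of all genes. Of 24 listed regulators and targets of ATF4, 23 passed the filter and 22 were higher in number 2, with a median log2 difference of 2.19 against 0.0079 over all genes, and 20 were more than 2-fold higher in both treatments. FGF21 was under the filter, and the count of 22 was the same without each library in turn. The 1 gene that did not pass the test was ERO1A (log2 difference -0.16). ATF4 itself had 7289 and 6836 against 17967 and 17050. DDIT3, which encodes the death-promoting factor CHOP, had 1412 and 1496 against 8575 and 10308, and ATF3, a factor that ATF4 induces, had 736 and 654 against 10443 and 11546. TRIB3, a pseudokinase that feeds back on ATF4, had 465 and 373 against 6684 and 6636. CHAC1, which encodes an enzyme that degrades glutathione, had 91.5 and 60.3 against 2633 and 2671 (log2 difference 5.14, SE 0.14). DDIT4, an inhibitor of mTORC1, had 971 and 701 against 20904 and 22082. These genes were several-fold higher in both number 2 libraries, and no value of number 1 reached the values of number 2. Of all 16535 genes, 12522 had no overlap between the numbers, in 1 direction or the other.

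GDF15, a secreted stress hormone gene that both ATF4 and p53 can induce (GRCh38 with GENCODE 29, as for all gene spans here: chromosome 19, 18374731 to 18389176), had 1373 and 1033 against 23604 and 21595, a log2 difference of 4.24 (SE 0.09). ADM2, which encodes the peptide intermedin, had 0 reads in both number 1 libraries and 135 and 166 recovered reads in number 2, which is at least 100-fold higher when a floor of 3 reads over both number 1 libraries is used. PPP1R15A, the phosphatase subunit that reverses eIF2 phosphorylation, had 3300 and 3107 against 11638 and 11761. The kinases and exchange factor that lie upstream were called in both directions, beside 27.9% of all genes higher and 25.9% lower. Of 13 genes for eIF2 kinases, eIF2 and eIF2B, 2 were higher, 7 were lower and 4 did not pass the test (median -0.23). Without control 2 or without mimic 2, 0 of these were called higher and 3 lower. EIF2AK4, the kinase that senses uncharged transfer RNA, had 3871 and 3910 against 2690 and 2711, and EIF2AK3, the kinase of the endoplasmic reticulum, had 751 and 537 against 546 and 744, which overlap.

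Amino acid supply genes were higher with few exceptions, beside 27.9% of all genes higher and 25.9% lower. Of 20 enzymes of amino acid synthesis and one-carbon metabolism 16 were higher and 2 were lower (median 1.42). ASNS, asparagine synthetase (chromosome 7, 97852118 to 97872542), had 857 and 914 against 18173 and 17176, a log2 difference of 4.32 (SE 0.10; 19.9-fold). CTH, which makes cysteine from cystathionine, had 256 and 268 against 5482 and 5658, and CBS, the enzyme before it, had 4.16 and 27.9 against 577 and 772. CBS has a near-identical copy in some builds, so its reads are uncertain. PSAT1 and PHGDH of the serine pathway had log2 differences of 3.01 and 2.08, and the mitochondrial folate genes ALDH1L2 and MTHFD2 had 3.40 and 2.34. The cytosolic folate genes went the other way: MTHFD1 had 634 and 653 against 322 and 395, and SHMT1 had 628 and 283 against 353 and 114, which overlap. Its call was lost in the fits without control 1, mimic 1 or mimic 2, which also lack the treatment term (log2 differences of -0.49, -1.64 and -0.25), while the differences within control and within mimic were -0.83 and -1.31.

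Of 15 amino acid transporters that passed the filter, of 16 listed, 12 were higher and 2 were lower (median 1.72). The shares of all genes were 27.9% and 25.9%. SLC7A11, the cystine importer, had 1030 and 1129 against 9806 and 8572, and SLC7A5, the light chain of the leucine importer, had 2294 and 1907 against 20896 and 19007. SLC3A2, the heavy chain that pairs with both, had 5627 and 5333 against 24412 and 21971. SLC6A9, a glycine transporter, had the largest log2 difference of the list, 4.24. Among the 2 lower genes was SLC1A3, the glial glutamate transporter, with 1047 and 942 against 335 and 210.

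Transfer RNA charging enzymes were counted by compartment, beside 27.9% of all genes higher and 25.9% lower. Of 20 cytosolic aminoacyl-tRNA synthetases 12 were higher and 3 were lower (median 0.80), among them WARS1 (3823 and 3915 against 23803 and 25829) and GARS1 (8367 and 8939 against 42045 and 45134), which charge tryptophan and glycine. QARS1, for glutamine, was lower (4283 and 3855 against 2063 and 2303). Of 16 mitochondrial synthetases that passed the filter, of 17 listed, 3 were higher and 6 were lower (median -0.08). That count was 2 and 2 without control 2 and 1 and 2 without mimic 2, and the median was 0.14 when only transcripts whose version matches the annotation were counted. GARS1 serves both compartments and was counted as cytosolic.

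Promoters of the stress genes are shown because a composite site for ATF4 and CEBP factors has been described in several of them. Letters are from RefSeq (GRCh38.p14), from 250 bases before the start site to the base before it, 5′ to 3′ along the gene, with the letters TGATGNAA in capitals on either strand. ASNS lies on the minus strand at chr7:97872409-97872658 and CHAC1 on the plus strand at chr15:40953221-40953470.
ASNS: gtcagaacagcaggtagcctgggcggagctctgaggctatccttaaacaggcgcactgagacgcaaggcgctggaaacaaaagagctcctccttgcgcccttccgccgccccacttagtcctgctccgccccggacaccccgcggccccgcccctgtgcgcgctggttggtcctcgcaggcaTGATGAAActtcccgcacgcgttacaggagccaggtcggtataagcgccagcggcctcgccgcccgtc
CHAC1: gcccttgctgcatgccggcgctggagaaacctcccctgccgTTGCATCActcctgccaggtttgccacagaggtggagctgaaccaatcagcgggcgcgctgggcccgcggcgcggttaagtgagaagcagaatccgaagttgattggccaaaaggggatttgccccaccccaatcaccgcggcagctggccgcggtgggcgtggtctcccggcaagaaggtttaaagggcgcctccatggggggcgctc
The match begins at position -68 of ASNS, and on the other strand at -209 of CHAC1. In the 300-base windows, which go on 50 bases past the start, the letters were in 3.6% of all 35116 promoters and in 1.9% of the 10814 found for the 13486 protein-coding genes tested. They were in 6 of 16 promoters of cytosolic synthetases (37.5%; 16 of 20 genes matched) and in 2 of 20 of the stress response list (10.0%; 20 of 23 matched). For the amino acid synthesis list only 15 of 20 genes matched, under the 80% needed, so its share is void.

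Genes for folding in the endoplasmic reticulum were divided. Of 21 genes 11 were higher and 8 were lower (median 0.27), beside 27.9% and 25.9% of all genes. HSPA5, the chaperone BiP, had 44268 and 47775 against 137530 and 160300, and ERN1 and XBP1, the sensor and factor of the IRE1 branch, had log2 differences of 2.43 and 1.93. HSP90B1, CALR, PDIA4, PDIA6 and CRELD2 were lower, the last with 1489 and 1466 against 727 and 737. Without control 2 the counts were 8 and 5, and without mimic 2 they were 8 and 3. Of 12 heat shock genes that passed the filter, of 15 listed, 8 were lower and 2 were higher (median -0.44), and 5 were lower without mimic 2. HSP90AA1 had 75304 and 83862 against 36461 and 31534, and HSPA8 had 57801 and 60705 against 27733 and 23215, while HSPA9, the mitochondrial chaperone mortalin, had 21164 and 22767 against 50676 and 53672.

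Genes for inflammatory ligands were higher as well, beside 27.9% of all genes higher and 25.9% lower. Of 14 chemokine genes listed, 7 passed the filter and 6 of these were higher (median 3.34). CXCL8, which encodes the neutrophil attractant interleukin 8 (chromosome 4, 73740506 to 73743716), had 898 and 1137 against 45336 and 28859, a log2 difference of 5.16 (SE 0.09; 35.8-fold). It was lower in mimic 2 than in control 2. CXCL2 had 291 and 329 against 5654 and 5124, and CXCL1, CXCL3 and CCL20 had log2 differences of 3.34, 3.33 and 3.98. CXCL1, CXCL2 and CXCL3 are close paralogs, so reads can be split between them. CCL2, which attracts monocytes, had 59.4 and 56.8 against 57.2 and 34.2 and did not pass the test.

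Genes of the interleukin 1 and 6 families, their receptors and colony-stimulating factors were counted beside 27.9% of all genes higher and 25.9% lower. Of 17 that passed the filter, of 18 listed, 10 were higher and 2 were lower (median 0.82). IL6 (chromosome 7, 22725884 to 22732002) had 262 and 212 against 10931 and 10816, a log2 difference of 5.52 (SE 0.11; 46.0-fold). IL1A, the alarmin interleukin 1 alpha, had 66.5 and 79.2 against 5115 and 4170, and IL1B had 1745 and 1516 against 12528 and 9027. CSF2 and CSF3, which encode GM-CSF and G-CSF, had log2 differences of 3.42 and 2.34. Among the receptors, IL6R, IL6ST, LIFR and OSMR did not pass the test, with log2 differences of -0.30, 0.02, -0.12 and 0.18, and IL1R1 was lower (1037 and 1086 against 749 and 646). IL33, an alarmin of the same family, was lower (148 and 159 against 26.9 and 29.5).

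Genes of NF-kB itself were higher too. Of 18 subunits, inhibitors and targets 16 were higher and 0 were lower (median 1.11), and the 2 that did not pass the test were REL and TNIP1. RELB had 478 and 371 against 1792 and 1570, NFKBIZ, a nuclear partner that favours IL6, had 1341 and 1716 against 5134 and 5128, and SOD2, the mitochondrial superoxide dismutase, had 6368 and 8181 against 28476 and 21070. PTGS2, which encodes cyclooxygenase 2, had 360 and 414 against 3551 and 2824. Its list of prostaglandin genes, with 3 of 12 higher and 4 lower, was near the shares of all genes (27.9% higher and 25.9% lower). Fewer of them were called higher without control 2, mimic 1 or mimic 2. Of 18 interferon-stimulated genes that passed the filter, of 21 listed, 9 were lower and 4 were higher (median -0.24; 2 higher and 6 lower without control 2 or without mimic 2), with OAS3 at 976 and 873 against 295 and 232 and IFI44 at 1424 and 1546 against 511 and 474.

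The promoters of CXCL8 (plus strand, chr4:73740319-73740568) and IL6 (plus strand, chr7:22726950-22727199) are printed because both hold letters of the NF-kB site, GGNNTTTCC, in capitals.
CXCL8: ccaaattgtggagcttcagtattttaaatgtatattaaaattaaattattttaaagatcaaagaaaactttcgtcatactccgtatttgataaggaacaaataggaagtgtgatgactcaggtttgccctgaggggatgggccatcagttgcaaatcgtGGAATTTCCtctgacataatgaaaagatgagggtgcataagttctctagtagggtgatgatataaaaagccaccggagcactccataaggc
IL6: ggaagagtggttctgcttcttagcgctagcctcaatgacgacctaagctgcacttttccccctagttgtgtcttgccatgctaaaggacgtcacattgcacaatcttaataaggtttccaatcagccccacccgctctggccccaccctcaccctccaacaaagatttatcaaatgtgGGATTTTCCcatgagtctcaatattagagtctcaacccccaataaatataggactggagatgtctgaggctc
The match starts at position -91 of CXCL8 and -72 of IL6. Of the 7 chemokine genes tested 6 had a promoter in the table, and all 6 held the letters (100%), as did 8 of 16 promoters of the NF-kB list (50.0%), against 6.3% of all promoters and 6.7% of those of the protein-coding genes tested. A match describes letters and is no measure of binding.

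Genes of the dividing cell were lower without exception in the lists of replication and mitosis. All 33 DNA replication genes were lower in number 2 (median -1.98), 31 of them by more than 2-fold in both treatments. The shares of all genes were 25.9% and 7.09%. The smallest difference was that of ORC6 (1140 and 1209 against 976 and 850). RRM2, the subunit of ribonucleotide reductase made in S phase, had 6664 and 6244 against 995 and 733. ORC1, the largest subunit of the origin recognition complex, had 771 and 724 against 76.2 and 79.3. MCM5 of the replicative helicase had 5046 and 3982 against 808 and 693, and TYMS, thymidylate synthase, had 5088 and 4727 against 806 and 664. When only transcripts of the annotated version were counted, 21 of 30 replication genes were lower and 0 were higher.

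All 31 mitosis genes were lower as well (median -1.83), and 27 were more than 2-fold lower in both treatments. The shares of all genes were 25.9% and 7.09%. MKI67, the proliferation marker Ki-67 (chromosome 10, 128096659 to 128126385), had 13268 and 13035 against 2003 and 2108, a log2 difference of -2.68 (SE 0.09; limma adjusted p = 1.18e-170). KIF20A, a motor of cytokinesis, had 2725 and 2646 against 214 and 179, and ANLN, the anillin of the contractile ring, had 11852 and 12710 against 2115 and 1834. TOP2A, CDK1, CCNB1, PLK1 and AURKA had log2 differences of -2.22, -1.49, -1.76, -2.15 and -1.44. For each of these genes both number 2 libraries were under both number 1 libraries. Of all 16535 genes, 12522 had no such overlap, in 1 direction or the other. In RNA from whole cultures, fewer cells in a phase and less RNA per cell cannot be told apart.

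Repair genes were mostly lower, beside 25.9% of all genes lower and 27.9% higher. Of 18 genes of homologous recombination and the Fanconi pathway 14 were lower and 1 was higher, with a median of -1.51. The higher gene was BLM (675 and 677 against 1352 and 1510). BRCA2 and PALB2 did not pass the test, with log2 differences of 0.06 each. Most tested histone genes, normally transcribed in S phase and without a poly(A) tail, went the other way. Of 12 tested, from 17 listed, 8 were higher and 0 lower (median 1.26). HIST2H2AA3, a histone gene not counted in that list, was read only in number 1, with 47 and 108 recovered reads against 0 and 0. H2AC6 had 237 and 234 against 1220 and 1144. The libraries were made from poly(A) RNA, so only polyadenylated histone RNA was read, and these genes have near-identical copies.

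The regulators of the cycle were divided. CDKN1A, the inhibitor p21, had 5296 and 4112 against 10615 and 10563, and CDKN1B, the inhibitor p27, had 1003 and 1107 against 1575 and 1466. E2F1 had 3353 and 2780 against 576 and 465, CCNE2 had 748 and 757 against 104 and 110, and E2F8 had 637 and 533 against 113 and 92.7. CCND1, cyclin D1, had 34296 and 32832 against 37348 and 31377, which overlap. CDKN2A, CDKN2B, CDKN2C and CDKN1C were under the filter. Of 21 p53 targets 14 were higher and 1 was lower (median 0.63), beside 27.9% and 25.9% of all genes. TNFRSF10B, a death receptor that CHOP can also induce, had 3345 and 3345 against 15506 and 15764, and GADD45A had 2548 and 2766 against 9361 and 9323. MDM2, the p53 ligase, had a log2 difference of 0.57, and FAS, TP53I3 and ZMAT3 did not pass the test (0.06, 0.03 and -0.01).

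Promoters of TYMS and MKI67 show the letters searched in the replication and mitosis lists. TYMS is on the plus strand at chr18:657403-657652 with the E2F letters TTTNNCGC in capitals, and is the replication gene with such a match before its start whose difference was lowest. MKI67 is on the minus strand at chr10:128126424-128126673 with the cell cycle homology region TTTGAA and the CCAAT box in capitals.
TYMS: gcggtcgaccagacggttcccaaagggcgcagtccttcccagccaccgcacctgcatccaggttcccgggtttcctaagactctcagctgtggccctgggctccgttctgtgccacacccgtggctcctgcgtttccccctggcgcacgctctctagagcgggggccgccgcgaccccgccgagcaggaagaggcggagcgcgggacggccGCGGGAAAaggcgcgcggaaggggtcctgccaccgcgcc
MKI67: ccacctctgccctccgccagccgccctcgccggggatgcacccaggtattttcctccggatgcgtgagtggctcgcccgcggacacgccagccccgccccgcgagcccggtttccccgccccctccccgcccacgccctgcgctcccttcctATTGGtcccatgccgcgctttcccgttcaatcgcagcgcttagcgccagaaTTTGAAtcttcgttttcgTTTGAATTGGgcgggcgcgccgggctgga
The E2F letters start at position -39 of TYMS on the other strand. In MKI67 the homology region starts at -47 and -29, and the CCAAT box at -98 and -24 on the other strand, the last sharing a base with the homology region at -29. The E2F letters were in 19 of 29 replication promoters (65.5%) and 2 of 25 mitosis promoters (8.0%), against 6.9% of all promoters and 10.5% of those of protein-coding genes tested. TTTGAA was in 18 of 25 mitosis promoters (72.0%) and 1 of 29 replication promoters (3.4%), against 15.2% and 10.3%. The CCAAT box was in 65.5% and 76.0% of the replication and mitosis promoters, against 34.6% and 37.1%.

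**Figure D3:**
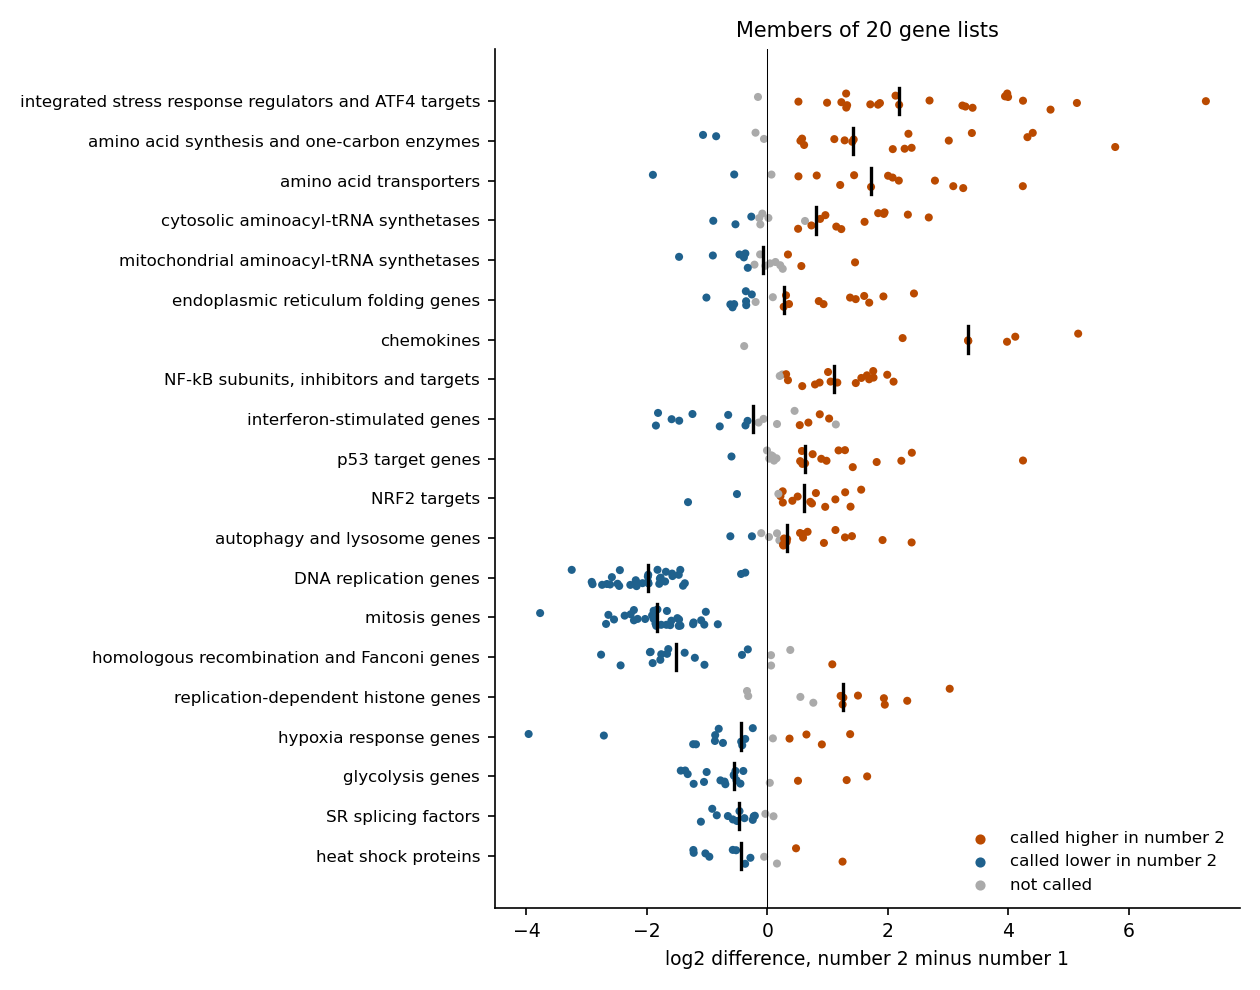
Log2 difference, number 2 minus number 1, of each tested member of 20 gene lists; orange points were called higher, blue points lower and grey points neither, with random vertical jitter, and the black bar is the median of the list. All points of the replication and mitosis lists are blue and left of 0 (medians -1.98 and -1.83), and 22 of 23 points of the stress response list are orange (median 2.19).

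Among metabolic genes outside amino acid supply, glycolysis genes were mostly lower, beside 25.9% of all genes lower and 27.9% higher. Of 19 glycolysis genes 15 were lower and 3 were higher (median -0.56). With only transcripts of the annotated version, 9 of the 19 were lower and 0 were higher. LDHA, lactate dehydrogenase, had 45941 and 44825 against 17085 and 16428, and PKM, pyruvate kinase, had 131740 and 120170 against 52385 and 48290. HK2, a hexokinase, was higher (8616 and 7957 against 20066 and 21197). Of 17 hypoxia response genes 12 were lower and 4 were higher (median -0.43), with 8 lower without control 1 or without mimic 2 and 2 higher without mimic 2. ANGPTL4, a secreted inhibitor of lipoprotein lipase, had 550 and 273 against 57.2 and 59.2. VEGFA, the vascular growth factor, went the other way, with 12718 and 10450 against 29340 and 30452. CA9, the gene that fell most in the list, has the letters ACGTG of the hypoxia response element on the other strand at position -18, in capitals in the 250 bases before its start (plus strand, chr9:35673678-35673927). The letters were in 6 of 14 promoters of the list (42.9%), in 34.5% and 36.0% of those of the replication and mitosis lists and in 26.4% of those of protein-coding genes tested. When only transcripts of the annotated version were counted, CA9 had a log2 difference of -3.63 with a limma adjusted p of 0.093.
CA9: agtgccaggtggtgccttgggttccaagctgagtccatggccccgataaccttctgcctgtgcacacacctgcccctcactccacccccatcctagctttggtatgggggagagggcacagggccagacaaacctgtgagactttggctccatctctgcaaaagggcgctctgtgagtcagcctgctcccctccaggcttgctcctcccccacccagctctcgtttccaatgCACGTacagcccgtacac

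Beside 25.9% of all genes lower and 27.9% higher, of 34 nuclear genes of oxidative phosphorylation 13 were lower and 2 were higher (median -0.14), with 0 higher without control 2, mimic 1 or mimic 2, as in ATP5F1A of the ATP synthase (12862 and 13050 against 6185 and 5992). Of 13 mitochondrially encoded genes 4 were lower and 0 were higher (median -0.11), and 0 of the 13 passed the test without control 2 or without mimic 2, 2 were lower and 2 higher without control 1, and 7 were lower without mimic 1. Cholesterol synthesis genes went both ways, with 6 of 18 higher and 6 lower, and 3 lower without control 2 or without mimic 1. Of 16 NRF2 targets that passed the filter, of 17 listed, 13 were higher and 2 were lower (median 0.61): TXNRD1, thioredoxin reductase 1, had 10392 and 11075 against 28750 and 27157. Of 21 genes of autophagy and the lysosome 15 were higher and 2 were lower (median 0.33). MAP1LC3B and GABARAPL1, which encode proteins of the autophagosome membrane, had 4438 and 4359 against 23405 and 22880 and 627 and 666 against 2290 and 2588. Without control 2 only 7 of the 21 genes were called higher, and without mimic 2 there were 9.

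Genes of the extracellular matrix were counted next. Of 20 matrix glycoproteins and lysyl oxidases that passed the filter 13 were lower and 4 were higher (median -0.72). VCAN, the proteoglycan versican, had 10593 and 10454 against 3466 and 3044, and FN1, fibronectin, had 80939 and 74084 against 47080 and 46081. TNC, tenascin C, and SPP1, osteopontin, were higher (log2 differences of 0.89 and 0.73). POSTN, periostin, was also higher and had the largest log2 difference of the list, 3.60 (12.2-fold). Its call was lost without control 2 (log2 difference 3.28) and without mimic 2 (3.93). Beside 25.9% of all genes lower and 27.9% higher, of 16 collagen chains 6 were lower and 3 were higher (median -0.19), with 1 higher without control 2, mimic 1 or mimic 2, 5 higher without control 1 and 3 lower without mimic 2. Of 17 matrix proteases and inhibitors 9 were higher and 3 were lower (median 0.48). MMP1, a collagenase, had 467 and 431 against 2321 and 1563, and ADAMTS5, an aggrecanase, had 3663 and 3793 against 16067 and 15811. SERPINB2 had 1421 and 1430 against 5586 and 3065, but its log2 difference was -0.12 when only transcripts of the annotated version were counted, and the list median was then -0.07.

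Growth factor ligands were called in both directions, 7 higher and 5 lower of 14 (median 0.34), beside 27.9% and 25.9% of all genes. Fewer of them were called lower without mimic 2. FGF2 had 2964 and 3378 against 22664 and 23793, and NRG1, which encodes the ERBB ligand neuregulin 1, had 417 and 466 against 5284 and 4636. HGF, the ligand of MET, had 2533 and 2643 against 1032 and 804, and ANGPT1, the ligand of TIE2, had 225 and 267 against 28.0 and 25.8. EGR1, an early response gene of serum, had 1309 and 1190 against 233 and 224, while JUNB, an AP-1 subunit gene, was higher (1111 and 937 against 2746 and 2562). CCN2, a target of YAP and TGF-beta, had 1814 and 2021 against 551 and 473, and ID1, a target of BMP, had 5354 and 4385 against 2006 and 1669. Of 19 genes of TGF-beta and BMP signalling that passed the filter 9 were lower and 2 were higher (median -0.21).

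Markers of other cell types were summed per library. Of 7 neuron markers that passed the filter, of 9 listed, 2 were higher and 2 were lower, which is near the shares of all genes (27.9% and 25.9%), and their summed level was 9708 and 8382 in number 1 and 6339 and 5855 in number 2. RBFOX3 and STMN2 had no row in the deposited values. SNAP25 had 778 and 712 against 88.5 and 80.2, and MAP2 had 545 and 663 against 2432 and 2426. Endothelial markers summed to 537 and 596 against 299 and 246, with 4 of 5 lower, CDH5 under the filter and CLDN5 with no row. Epithelial markers summed to 430 and 323 against 548 and 550, with 1 of 5 higher, ESRP1 (13.5 and 3.60 against 201 and 173), 1 lower, EPCAM (45.7 and 41.4 against 16.8 and 11.4), whose call was lost without mimic 2 (log2 difference -1.32), and KRT19, KRT5 and GRHL2 with no row. Immune markers summed to 455 and 352 against 66.1 and 62.9, nearly all of it CSF1R (440 and 340 against 53.8 and 52.4), with PTPRC, CD14 and ITGAM under the filter and CD3E and LYZ with no row. Fibroblast and pericyte markers summed to 1526 and 1394 against 1715 and 1553, and oligodendrocyte markers to 2546 and 2312 against 2135 and 2105, with 0 of 2 called by limma. The part of such markers in the other differences was not tested.

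Long non-coding RNAs are named by the same rule. GAS5, ZFAS1, SNHG1 and SNHG15, which host small nucleolar RNAs and whose spliced RNA is degraded during translation, were higher: GAS5 had 2025 and 2096 against 8766 and 9535, and ZFAS1 had 2522 and 2517 against 12674 and 13217. Of 13 genes listed as snoRNA hosts and other short-lived non-coding RNAs 8 were higher and 0 were lower (median 0.61). Over all genes the shares were 27.9% higher and 25.9% lower. ENSG00000261512 on chromosome 16 had 83.2 and 51.3 against 424 and 629. LASTR had 405 and 410 against 8.97 and 16.1, a log2 difference of -4.97 (SE 0.28), and GAPLINC had 555 and 506 against 143 and 136. NEAT1, the RNA of paraspeckles, had 12025 and 10908 against 27005 and 26312. Ribosomal protein genes, whose RNA carries the same 5′ tract as several host genes, had 30 of 77 higher and 15 lower with a median of 0.12, and 8 and 9 of them without control 2 and 7 and 8 without mimic 2. SR splicing factor genes were lower in 11 of 13 and higher in 0 (median -0.46), with 8 lower without control 2 or without mimic 1 and 6 without mimic 2, and SRSF7 at 4694 and 5026 against 2303 and 2217.

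Of 58500 transcripts, 5025 (8.59%) were more than 2-fold higher in both treatments and 4751 (8.12%) more than 2-fold lower, and limma called 953 (1.63%) higher and 842 (1.44%) lower with 3.74 degrees of freedom per transcript; 14285 had an unadjusted p under 0.05. Transcripts annotated as targets of nonsense-mediated decay, the pathway that degrades RNA with an early stop codon, were more than 2-fold higher in 11.5% and lower in 6.75% of 4992, with a median log2 difference of 0.17, and 0.12 relative to their own gene. Transcripts with a retained intron had 6.41% and 8.13% of 8811 and a median of -0.10. Protein-coding transcripts had 8.38% and 8.57% of 35290 and a median of 0.0056. As shares of all values, decay targets held 2.34% and 2.42% in number 1 and 2.61% and 2.69% in number 2, which do not overlap, and retained introns held 2.81% and 2.85% against 2.70% and 2.78%. These differences between kinds were not tested.

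In 7973 genes with a mean of at least 500 and more than 1 transcript, 115 (1.44%) had a transcript whose share of the gene differed by at least 20 percentage points in the same direction in both treatments, and 18 had one that did so in opposite directions. Of the 115 genes 58 were higher as a whole, 30 were lower and 27 did not pass the test. The shares of all genes tested were 27.9% higher and 25.9% lower. EDRF1-202 held 8.60% and 14.9% of EDRF1 in number 1 and 73.3% and 74.9% in number 2, while EDRF1-201 went from 49.6% and 39.1% to 2.81% and 0.495%. UNG, which encodes uracil DNA glycosylase, makes a mitochondrial and a nuclear enzyme from different first exons. UNG-202 held 43.6% and 44.5% against 86.2% and 85.1%, and UNG-201 held 55.2% and 50.8% against 10.3% and 13.8%. IL6ST, the shared receptor of the interleukin 6 family, did not pass the test as a gene, but its transcript IL6ST-201 held 72.0% and 64.4% against 10.9% and 13.2%. VGLL4-201 held 2.86% and 1.33% against 40.7% and 44.2% of VGLL4, a competitor of YAP for TEAD factors. RAB43-201 held 0% and 49.1% in number 1, so the 2 treatments did not match there, and 86.1% and 88.6% in number 2. Shares are estimates by pseudoalignment and depend on which transcripts were annotated. The mean of at least 500 is over all 4 libraries, so genes with low values in number 1 could pass it. Number 1 shares rest on gene values of 10.4 and 19.8 in OLAH, 134 and 104 in RAB43 and 166 and 164 in AKNA.

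**Figure D4:**
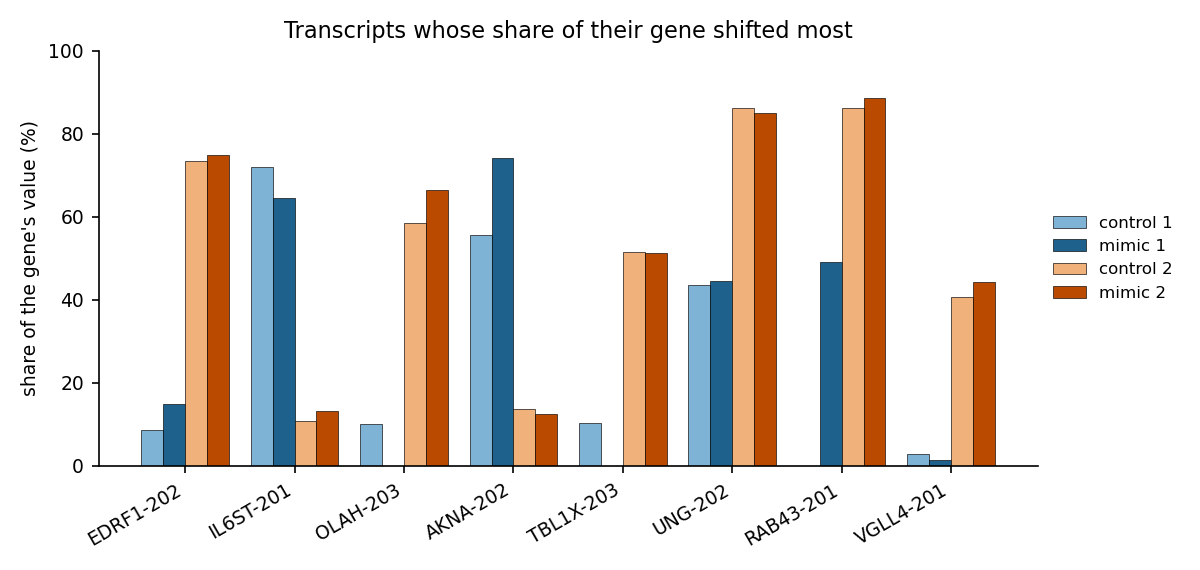
Share of its gene's normalised value held by 1 transcript of each of 8 genes, in percent, as bars for the 4 libraries; blue bars are number 1 and orange bars number 2. EDRF1-202 stood at 8.60% and 14.9% in number 1 and 73.3% and 74.9% in number 2, and IL6ST-201 and AKNA-202 went the other way. The blue bars of OLAH, RAB43 and AKNA rest on low gene values, as in OLAH with 10.4 and 19.8 normalised reads.

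Some genes were read in 1 number and not at all in the other. Only protein-coding genes outside chromosome Y were counted here. Of these, 19 had 0 reads in both number 1 libraries and at least 10 recovered reads in each number 2 library, and 10 had the reverse. No deposited transcript had fewer than 10 recovered reads over the 4 libraries, so 0 reads refers to deposited transcripts only. TMEM265, a membrane protein gene, had 188 and 237 reads in number 2, at least 142-fold higher with a floor of 3 reads over both number 1 libraries. GJA5, which encodes connexin 40, had 110 and 149, at least 86.3-fold higher. TP73, a p53 relative that E2F1 induces, had 31 and 28 reads in number 1 and 0 in number 2, at least 19.7-fold lower with the same floor over both number 2 libraries. Such floors cover counting error only.

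Position along the genome was described by the median of 25 neighbouring genes tested, over 15953 windows. Their middle 90% by rank, from the 5th to the 95th percentile, lay between -0.29 and 0.32. The windows named were picked as extremes of these medians, so counts of their called members rest on the same values. Among all genes tested 27.9% were higher and 25.9% lower. The lowest window held protocadherin beta and gamma genes from PCDHB3 to PCDHGB3 (chromosome 5, 141100473 to 141512981; median -0.92), with 15 of 25 lower and 0 higher. PCDHB5 had 182 and 157 against 44.8 and 42.0, and PCDHB16 had 434 and 486 against 210 and 192. These genes share exons or close sequence, so their reads are not independent. The highest window lay on chromosome 16 (15094411 to 18401940; median 0.95) and holds NPIPA and PKD1 pseudogene copies, which are near-identical and uncertain. The window from VPS26A to DDIT4-AS1 on chromosome 10 had a median of 0.71, with 14 of 25 higher: beside UNC5B and DDIT4 it holds PSAP, the saposin precursor of the lysosome, at 39514 and 37319 against 78706 and 77829, and SGPL1, sphingosine phosphate lyase, at 1263 and 1115 against 3859 and 3675. The window from UROS to ZNF511 near the end of chromosome 10 had a median of -0.76, with MKI67 and C10orf90 among its members.

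Properties of the leading transcript were described in bins of equal size. In the bins of lowest and highest GC content the median log2 difference was -0.00016 and 0.065. It was 0.032 in the bin of the shortest and -0.030 in that of the longest transcripts. By level, 11.3% of genes in the lowest bin and 35.7% in the highest were called higher.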

How the data were processed

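RNA sequencing of poly(A) RNA was read from 1 deposited table of 100809 transcripts in 4 libraries. The deposited signal is normalised reads per transcript, and the submitters' processing notes name hg38, kallisto and DESeq2, without versions. The values are whole multiples of what 1 read is worth in a library for 95.6% to 99.7% of values (within 0.1), so whole reads were recovered for the count tools used as alternatives. Transcripts were matched to GENCODE 29 (90643, 89.9%; 79288 with the same version) and summed to 22031 genes; unmatched transcripts held 3.25% to 3.56% of the values.

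Genes and transcripts with a mean of at least 10 were tested with limma 3.58.1 (trend) in R 4.3.3 on log2(value + 1), with number and treatment as terms and Benjamini-Hochberg adjustment at 0.05. Fold changes are on that scale, which understates changes of low genes. The labels do not say that the libraries came from separate cultures, so p-values measure only the spread between these samples, which may be technical. On simulated data the fit for genes recovered 49 of 50 made 4-fold higher and 44 of 50 made 2-fold higher. It recovered 42 of 50 made 2-fold lower and 49 of 50 made 4-fold lower, and called 11 of 16343 unchanged genes. The simulation gave all genes of a level the same spread, and control and mimic the same number difference, as the fit assumes. Its error rate therefore does not carry over to genes whose treatments differ. Alternatives were other pseudocounts, filters and scalings, a GC correction, edgeR 4.0.16, DESeq2 1.42.0 and voom, no treatment term, only same-version transcripts and leaving out each library together with the treatment term.

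Named by rule were the 6 markers given with the comparison; in each direction the 12 called protein-coding genes with the largest log2 difference, over 2-fold within both treatments and with a mean of at least 500; 4 long non-coding genes a direction by the same rule with a mean of at least 200; up to 4 called members a list and the largest in the other direction; the 6 genes with a mean of at least 500 whose treatments lay farthest apart; the 8 largest transcript shifts; and 5 protein-coding genes a direction read in 1 number only. Further list members named, and genes named beside windows, are choices made with their values in view. The members and lists were chosen with earlier results of these data known. All 48 lists were counted; those not described are in the closing section. Intervals and floors cover counting error only.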

Additional observations from a re-analysis of the deposited data

Results flagged for a closer look

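In 4 of the 6 genes whose treatments lay farthest apart, control and mimic differed between the numbers in opposite directions, and the difference between the treatments was not tested. ARHGAP35 had a log2 difference of -0.75 within control and 1.73 within mimic, so that control minus mimic was -2.49. ATF6B, which encodes a factor of the endoplasmic reticulum stress response, had -0.48 and 1.77, with -2.25 between them. SUMF2 had -1.07 and 0.74, with -1.81 between them. FLOT1, which encodes the membrane scaffold protein flotillin 1, had -0.22 and 1.501, with -1.72 between them. The values of ARHGAP35 were 2702 and 913 normalised reads in number 1 and 1604 and 3040 in number 2, so the numbers overlapped. The main fit still called ARHGAP35, ATF6B and FLOT1 higher, with log2 differences of 0.49, 0.65 and 0.64.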

How the results depend on the processing

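No paired analysis was possible because the replicate number is itself the comparison; treatment was the block. Counts of genes higher and lower were 4497 and 4296 with edgeR, 4118 and 3956 with voom, 4297 and 4004 without the treatment term and 3143 and 3035 with DESeq2. With only same-version transcripts they were 2195 and 2097; fewer reads and genes enter that fit. Leaving out 1 library at a time, together with the treatment term, for which no degree of freedom is left, gave 2577 to 4281 higher and 2586 to 3792 lower; the arm left with 1 sample is then assumed to vary like the other. Over 4-fold in both treatments there were 297 and 223. Transcripts called higher were 2372 with a mean of at least 50, 3012 with at least 100 and 2587 without the treatment term, and lower 2209, 2789 and 2278. Genes with a share shift were 726 at 10 points, 25 at 30 points and 34 in genes with a mean of at least 2000.

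Log2 differences that changed sign with same-version transcripts were those of EIF2S3 (-0.12), MT1F (-0.39), MT1X (0.90), SERPINB2 (-0.12), NDUFA6 (-1.21), TWIST1 (0.69) and SUMF2 (0.11). Over the fits that leave out 1 library the sign also changed for NDUFA6 (-0.094 to 0.81), ARHGAP35 (-0.29 to 1.27), ATF6B (-0.13 to 1.42) and FLOT1 (-0.011 to 1.29), each lowest without mimic 1, and for SUMF2 (-0.76 without mimic 1, 0.15 without control 2 and 0.43 without control 1). List medians changed sign for mitochondrial synthetases (0.14), matrix proteases (-0.074) and YAP genes (0.34) with same-version transcripts, and for cholesterol synthesis (-0.011) and AP-1 genes (-0.0035) with total-sum scaling. Over the fits that leave out 1 library they did for cholesterol synthesis (-0.031 to 0.096), fatty acid synthesis (-0.13 to 0.048), AP-1 genes (-0.11 to 0.13), YAP genes (-0.14 to 0.12), epithelial markers (-0.13 to 0.25) and fibroblast markers (-0.079 to 0.46). With a mean of at least 50 they did for MAP kinase feedback genes (-0.027) and neuron markers (-0.19). The cause was not tested.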

Other observations

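Lists not described above are given beside 27.9% of all genes higher and 25.9% lower, with counts from fits without 1 library, which have no treatment term. Of 9 fatty acid synthesis genes 3 were higher and 2 lower (median -0.12), with 1 higher without control 2 or mimic 1 and 0 without mimic 2. Of 16 AP-1 and early response genes 5 were higher and 5 lower (median 0.04), with 2 lower without control 1, control 2 or mimic 2. Of 11 MAP kinase feedback genes 5 were higher and 5 lower (median 0.25), with 2 higher without control 2, 3 higher without mimic 1 and 3 lower without mimic 2. Of 15 YAP and TEAD genes 5 were higher and 7 lower (median -0.01), with 3 higher without control 2. Of 8 factors and markers of the epithelial-mesenchymal transition 1 was higher and 2 were lower (median -0.12), with 1 lower without control 1, mimic 1 or mimic 2. Of 7 metallothionein genes and the zinc exporter gene 4 were higher and 1 was lower (median 0.81), with 2 higher without control 2 or mimic 2; metallothioneins are close paralogs. Of 19 genes for inhibitors of cyclin-dependent kinases, cyclins and E2F 5 were higher and 9 lower (median -0.34), and of 9 abundant long non-coding RNAs 6 were higher and 0 lower (median 0.39), with 3 higher without control 2 and 4 without mimic 2. Of 6 fibroblast and pericyte markers 2 were higher and 2 were lower (median 0.23), with 1 higher and 0 lower without mimic 2, 1 and 1 without control 2 or mimic 1, and 2 and 0 without control 1.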
